A study of Mus musculus with 4 samples.

Results

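Spermatogonia with high Stra8 and little Meioc were taken from the 10x single-cell RNA libraries of 4 mice, each made from 1 testis at postnatal day 15. A cell was a member if it had at least 3 unique molecular identifiers (UMIs, counted RNA molecules) of the germline genes Ddx4 and Dazl, at least 5 Stra8 and under 2 Meioc UMIs per 10000, at least 2 UMIs of Kit and Dnmt3b, and no more than 1 of Gfra1 and Ret. The rule took 1923 of 23584 germ cells, out of 29592 barcodes with over 1000 detected genes and under 10% mitochondrial UMIs. Each of 2 batches held a pair of littermates, 1 wild-type and 1 Meioc-null, which makes 2 mice per genotype. The Meioc allele had been backcrossed to C57BL/6N. Wild-type and null mice alike were heterozygous for an Hspa2 allele and homozygous for a ROSA26 tdTomato reporter with its stop cassette in place. The loose interstitial cells had been poured off before the tubules were digested.

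Retinoic acid pushes spermatogonia to differentiate. It binds RAR and RXR receptors in the nucleus, and Stra8 is a direct target. Spermatogonia turn on Stra8 and the receptor tyrosine kinase Kit as they leave the undifferentiated pool, keep dividing by mitosis, then turn Stra8 on again at the preleptotene stage together with Meiosin (Gm4969 in these files), when meiosis begins. MEIOC acts on RNA together with YTHDC2 and RBM46. LHX8 and SOHLH1 are homeobox and helix-loop-helix factors of differentiating germ cells, DNMT3B is a DNA methyltransferase, and DPPA3 (STELLA) protects DNA in the early embryo from loss of methylation.

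Stra8, the gene that defines these cells, lies on chromosome 6 at 34920163-34939344 on the plus strand (GRCm38, GENCODE vM21). Because RAR-RXR dimers read pairs of AGGTCA motifs, the 250 bases before the RefSeq start (GRCm38.p6) were searched for AGGTCA on both strands (TGACCT on the other). Of 17 genes of these cells looked up, 14 had an entry and 2 held a match. The windows below are read on the strand of the gene, with the motif in capitals.
Stra8, 194 bases before the start, chr6:34920746-34920767: gggtgaaaAGGTCAtcttgctc
Stra8, 38 bases before the start, chr6:34920902-34920923: ggggtaccAGGTCAgtttttta
Sohlh1, 215 bases before the start, minus strand, chr2:25847450-25847471: ctgtgatcAGGTCAcgtggtct
Over all 32851 RefSeq entries, 14.0% held at least 1 match in this window and 1.36% held 2 or more. A match describes letters and is not a measured binding site. The annotation places both Stra8 windows inside a 5′ untranslated exon of another Stra8 transcript.

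The libraries held 11986 to 16486 barcodes, of which 6334 to 8494 passed both filters, with 158291903 to 190455307 UMIs. Members were deep, with a median of 32017 and 31972 UMIs per cell in the wild-type libraries and 28702 and 36050.5 in the Meioc-null libraries, against 10806 to 13424 in preleptotene cells. Pairs of libraries shared 45 to 73 barcodes, 12 to 16 of them among kept cells. Likely doublets were the cells with the highest Scrublet scores, in a number set beforehand at 0.8% per 1000 barcodes of the library. They made up 8.87% to 12.6% of members and 9.27% to 12.3% of all germ cells. The threshold that Scrublet itself chose called 1.94% to 4.97% of kept cells.

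The gate genes describe the choice and are not tested. Levels are in counts per 1000000 UMIs (CPM), summed over the cells of a class in a library, in the order wild-type 1, wild-type 2, Meioc-null 1 and Meioc-null 2. Stra8 stood at 1025, 929.6, 991 and 972 CPM in members, and Meioc at 29.8, 24.4, 29.9 and 26.4 CPM. Kit, the receptor for stem cell factor, stood at 259.5, 264, 259.9 and 248 CPM, and Dnmt3b at 138, 141, 132.5 and 129 CPM. The same limits were set in each library, so these values describe the rule. The other germ cell classes met the same limit on Ddx4 and Dazl. Preleptotene cells had at least 5 Stra8 and at least 5 Meioc UMIs per 10000 and no more than 1 UMI of Gfra1 and Ret. They held 1723 to 1985 CPM of Stra8 and 762 to 808 CPM of Meioc. Undifferentiated cells were those with at least 2 UMIs of Gfra1 and Ret, under 2 Stra8 and under 2 Meioc UMIs per 10000. They held 26.4 to 50.9 CPM of Stra8. Stra8-low cells met every limit set for members except that on Stra8, which was under 2 UMIs per 10000. They held 57.7 to 80.6 CPM of Stra8. The limits themselves keep Stra8 low in both of these classes. Somatic cells were those with no UMI of Ddx4 or Dazl and at least 3 UMIs of Sox9, Cldn11, Acta2 and Myh11. Stra8, which they should lack, was at 4.20 to 23.2 CPM. Of 2136 somatic cells 5 passed the Stra8 gate, 3 and 2 in the Meioc-null libraries and 0 in each wild-type library. At 5000 UMIs per cell, a Stra8 UMI was seen in 5.86%, 2.21%, 10.4% and 4.34% of somatic cells and in 98.9%, 98.2%, 99.1% and 98.7% of members, which the gate itself sets. Meioc counts come from the 3′ end of transcripts and do not check the deletion.

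**Figure D1:**
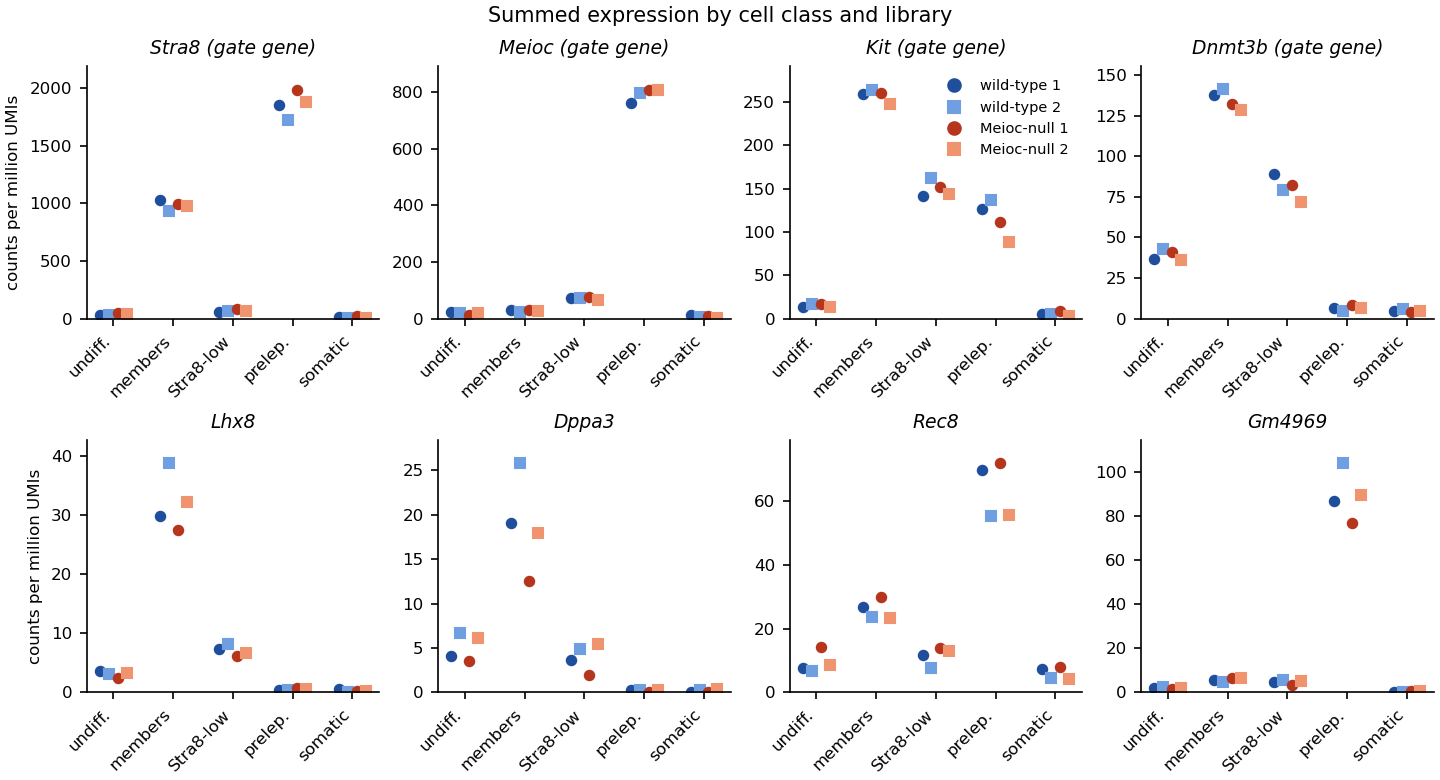
CPM, summed over the cells of each class in each library, for 8 genes. Points are libraries (blue wild-type, red Meioc-null, circles batch 1, squares batch 2), and all y axes are linear from 0. Lhx8 and Dppa3 are higher in members than in the other classes shown in all 4 libraries, while Gm4969 stays under 7 CPM outside preleptotene cells.

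Lhx8 and Dppa3, which the gate did not use, were higher in members than in the 3 other germ cell classes. Both were taken as markers of these cells with earlier results of these data known. Their levels therefore describe the members and do not test the choice. Lhx8 (chromosome 3, 154306294-154330659) was at 29.9, 38.8, 27.6 and 32.3 CPM in members, at 2.44 to 3.602 CPM in undifferentiated cells, at 6.21 to 8.11 CPM in Stra8-low cells and at 0.365 to 0.643 CPM in preleptotene cells. Dppa3 (chromosome 6, 122626410-122630272) was at 19.1, 25.8, 12.5 and 18.0 CPM in members and at 3.51 to 6.71, 1.93 to 5.40 and 0.0378 to 0.243 CPM in the same 3 classes. The ranges of members and of each other class did not overlap for either gene. A UMI of both genes was seen in 26.6%, 36.6%, 17.4% and 28.2% of members and of neither in 31.2%, 25.5%, 44.1% and 32.2%. At such low levels a cell can miss a UMI by counting alone, so these shares do not show which cells lacked the RNA. In somatic cells Lhx8 was at no more than 0.532 CPM and Dppa3 at no more than 0.315 CPM. Rec8, the meiotic cohesin subunit, stood at 26.8, 23.6, 29.8 and 23.2 CPM in members, between undifferentiated cells (6.71 to 14.2 CPM) and preleptotene cells (55.5 to 72.1 CPM). Gm4969 was at 5.43, 4.88, 6.67 and 6.37 CPM in members against 76.7 to 104 CPM in preleptotene cells. Members thus held Stra8 with little RNA of its meiotic partner. The limits on Meioc part these 2 classes, and Gm4969 was higher in members near that limit, at 21.9 to 35.0 CPM. The contrast therefore describes the rule in part.

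At the edges of the gate, 225 members held 5 to 6 Stra8 UMIs per 10000 and 232 cells just outside held 4 to 5. Lhx8 ran from 10.9 to 27.2 CPM over the libraries just inside this edge and from 13.6 to 29.4 CPM just outside, and Dppa3 from 7.29 to 28.2 CPM inside and from 5.67 to 30.4 CPM outside. The 926 cells with 2 to 5 Stra8 UMIs per 10000, which fall in none of the classes compared here, held 12.8 to 20.4 CPM of Lhx8 and 4.06 to 20.7 CPM of Dppa3. Both genes therefore ran on past the Stra8 limit, and in the cells with 4 to 5 the ranges of both overlapped those of members. The 108 members with 1.5 to 2 Meioc UMIs per 10000 held 21.9 to 35.0 CPM of Gm4969, and the 122 cells with 2 to 2.5 held 27.3 to 50.9 CPM. The edge of the gate near Meioc therefore held more Meiosin RNA than the members as a whole.

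Members made up a larger share of germ cells in both Meioc-null mice. They were 5.78% (282 of 4876) and 6.61% (467 of 7066) of germ cells in wild-type mice, with exact 95% binomial intervals of 5.14% to 6.48% and 6.04% to 7.21%. In Meioc-null mice they were 9.16% (546 of 5958, 8.44% to 9.93%) and 11.1% (628 of 5684, 10.2% to 11.9%). The means were 6.20% ± 0.584 and 10.1% ± 1.33 (SD, n = 2 each), a ratio of 1.63, and the difference was 3.38 percentage points in batch 1 and 4.44 in batch 2. The ranges did not overlap. A two-sided exact permutation test gave p = 0.3333, the smallest that 2 against 2 libraries allow. When cells with at least 5000 UMIs were cut at random to 5000 each, the mean shares were 3.14% and 5.30%. That difference was smaller, at 2.16 percentage points. Of all germ cells, 28.7% and 24.8% met the Stra8 limit in wild-type mice, against 63.1% and 53.5% in the nulls. Whether the same limits took the same kind of cell in both genotypes was not tested. The intervals cover counting error only, and a change in other germ cells moves this share as well as a change in members.

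The share was therefore also set against the neighbouring spermatogonia. Of members and Stra8-low cells together, members were 31.3% and 34.0% in the wild-type mice against 52.8% and 48.9% in the nulls, a difference of 21.5 points in batch 1 and 14.9 in batch 2. Only the Stra8 limit parts these 2 classes, so this share follows Stra8, a gene of the rule. Of members and undifferentiated cells together, members were 54.2% and 64.4% against 67.8% and 70.6%. A Stra8 limit also parts members from undifferentiated cells, so neither share is free of the rule. Neither pair of ranges overlapped, and both tests gave the same smallest p of 0.3333. With a mitochondrial limit of 5% the shares of germ cells were 1.98% and 4.63% against 4.56% and 6.21%, and the ranges overlapped (exact permutation p = 0.6667).

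**Figure D2:**
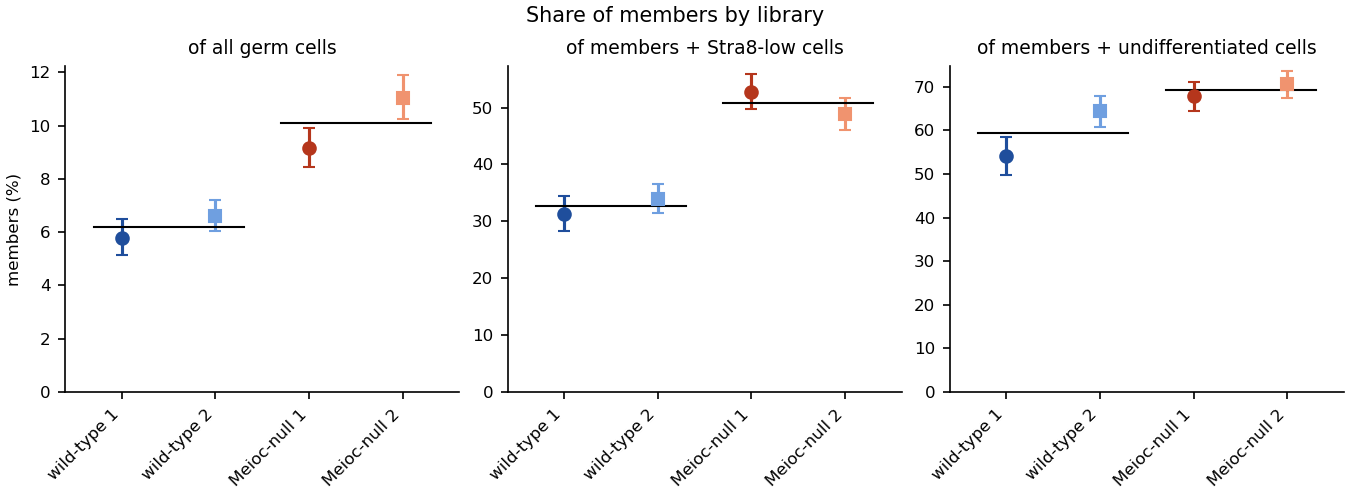
Share of members by library among all germ cells, among members plus Stra8-low cells and among members plus undifferentiated cells, with exact 95% binomial intervals and the mean of each genotype as a line. Both Meioc-null libraries lie above both wild-type libraries in each panel, at 9.16% and 11.1% against 5.78% and 6.61% of germ cells.

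Within members, few transcripts were called between genotypes unless littermate pairs were held as a block. UMIs were summed per library and tested with edgeR over 8769 genes, leaving out the 8 gate genes. A gene was called at an adjusted p under 0.05 and a log2 fold change (wild-type over Meioc-null) beyond 0.1. Only 7 genes were called, or 0.0798% of those tested. Of these, 4 (0.0456%) were higher and 3 (0.0342%) lower in wild-type than in Meioc-null members. DESeq2 called 12, and 373 genes had an unadjusted p under 0.05. With littermate pairs as a block the count rose to 208 (2.37%), 120 (1.37%) higher and 88 (1.0%) lower in wild-type, and it held all 7. Both fits borrow the spread between mice from other genes, and the blocked fit leaves less freedom to estimate it. For Rsph1 the adjusted p went from 1.037e-05 to 2.586e-62 with the block, at log2 fold changes of 2.441 and 2.445. P-values of either fit therefore do not measure the spread between mice alone. With 1 library left out, 1 genotype was down to 1 mouse, so the counts of those fits are listed only in the closing section and not interpreted. In those fits the log2 fold change ran from 2.199 to 2.784 for Rsph1 and from 1.475 to 1.642 for Gm884. Without the block the count fell to 1 when likely doublets were removed. It was also 1 at a mitochondrial limit of 5%, which left 17 to 59 members per library, and 192 with no filter on low counts.

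Gm884 was the gene left by both of those stricter filters, at a log2 fold change of 1.515 with doublets removed and of 5.07 at the mitochondrial limit of 5%. Wild-type members held 22.8 and 23.9 CPM of it and Meioc-null members 8.77 and 7.45 CPM (log2 fold change 1.56 ± 0.17, SE; adjusted p = 0.0001725). It was also lower in both Meioc-null libraries in undifferentiated cells (39.0 and 42.3 against 23.7 and 25.4 CPM), Stra8-low cells (16.3 and 16.8 against 6.46 and 7.03 CPM) and preleptotene cells (22.2 and 24.5 against 3.48 and 5.68 CPM), so the lower level was seen in every germ cell class here. In somatic cells it was at 0.735 to 2.39 CPM. Gm884 (chromosome 11, 103534577-103621140, minus strand) lies 852 kb from Meioc (102663716-102682237, plus strand). Of 24 tested genes within 1 Mb of Meioc, it was the only one called, with or without the block. Whether its position near the mutated gene bears on its level was not tested.

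The other 3 transcripts higher in wild-type members belong to spermatocytes and spermatids. Rsph1, a radial spoke protein of the sperm axoneme, was at 23.8 and 26.9 against 3.89 and 5.46 CPM (log2 fold change 2.44 ± 0.20, adjusted p = 1.037e-05). Fabp9, a fatty acid binding protein of spermatocytes and sperm, was at 23.7 and 25.8 against 8.09 and 10.0 CPM (1.46 ± 0.18, adjusted p = 0.0005086). Meig1, needed to build the sperm tail, was at 34.2 and 34.2 against 13.2 and 13.7 CPM (1.37 ± 0.15, adjusted p = 0.0001725). The 2 genotypes were apart for all 3 genes. With likely doublets removed, none of the 3 was called, at log2 fold changes of 1.79 for Rsph1, 0.96 for Fabp9 and 1.046 for Meig1 (adjusted p = 0.4693, 0.3357 and 0.0924), and all 3 were called there with the littermate block. The same 3 transcripts were higher in wild-type somatic cells, which do not make sperm: Fabp9 at 18.9 and 5.86 against 0.174 and 0.105 CPM, Meig1 at 43.9 and 27.3 against 17.8 and 9.03 CPM, and Rsph1 at 36.2 and 18.0 against 15.7 and 9.45 CPM. Of 8 pachytene markers all had UMIs in members, and they summed to 327 and 285 CPM in wild-type members and to 264 and 259 CPM in the nulls. Of the 5 of them that were tested 0 were called without the block, at a median log2 fold change of 0.816, and with it Piwil1, Ldhc and Tesmin were higher in wild-type members. Tesmin was at 16.1 and 13.7 against 8.65 and 7.12 CPM in members and at 15.7 and 4.805 against 0.872 and 0.525 CPM in somatic cells. The part of this RNA in the difference within members was not tested.

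The 3 transcripts higher in Meioc-null members are abundant in somatic cells. Acta2, the smooth muscle actin of peritubular myoid cells, was at 71.3 and 55.6 against 114 and 141 CPM (log2 fold change -1.001 ± 0.14, adjusted p = 0.01128). It was at 8118 to 9731 CPM in somatic cells, which were chosen in part on their Acta2 UMIs. Junb, an immediate early gene, was at 31.8 and 22.3 against 50.1 and 50.8 CPM (-0.89 ± 0.15, adjusted p = 0.02046). It was the 1 of 6 tested dissociation stress genes that was called, and with the block 3 of the 6 (Junb, Fos and Egr1) were lower in wild-type members. Fos was at 56.0 and 42.3 against 74.05 and 68.4 CPM, and the 12 stress genes together at 831 and 675 against 807 and 769 CPM. Cyp26b1, which breaks down retinoic acid, was at 22.1 and 19.1 against 38.4 and 34.7 CPM (-0.81 ± 0.14, adjusted p = 0.02881), and at 1516 to 1688 CPM in somatic cells. Summed over 5 peritubular myoid markers, all of which had UMIs, wild-type members held 131.5 and 105 CPM and Meioc-null members 227 and 267 CPM, and over 6 Sertoli markers 114 and 75.4 against 123 and 146 CPM. The 6 macrophage markers, also all with UMIs, summed to 3.41 and 2.95 against 9.02 and 12.4 CPM. The 4 blood markers were higher in the second library of each genotype, at 14.3 and 123 against 11.2 and 91.8 CPM. The other classes did not show that split. The 6 Leydig markers went the other way, at 77.7 and 73.8 against 51.7 and 60.1 CPM. Most of that sum was Dlk1, at 69.6 and 67.8 against 45.3 and 50.1 CPM, which was called with the littermate block (0.545 ± 0.095) and not without it (adjusted p = 0.2184). When only cells with under 3 UMIs of the somatic markers Sox9, Cldn11, Acta2 and Myh11 were kept, Acta2 (log2 fold change -0.23) and Cyp26b1 (0.07) were not called, with or without the block, and Junb was seen in too few cells to be tested. Acta2 is one of the 4 markers, so this filter sets its own result. With likely doublets removed, Acta2 (-0.419) and Cyp26b1 (-0.245) were not called (adjusted p = 0.9996 for both), nor with the block as well (-0.638 and -0.257), and Junb was not tested. At a Stra8 minimum of 10 the 3 genes stood at 0.13 for Acta2, -0.394 for Junb and -0.092 for Cyp26b1 and were not called. Without wild-type 2 neither Junb nor Cyp26b1 was called (adjusted p = 0.1055 for both).

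**Figure D3:**
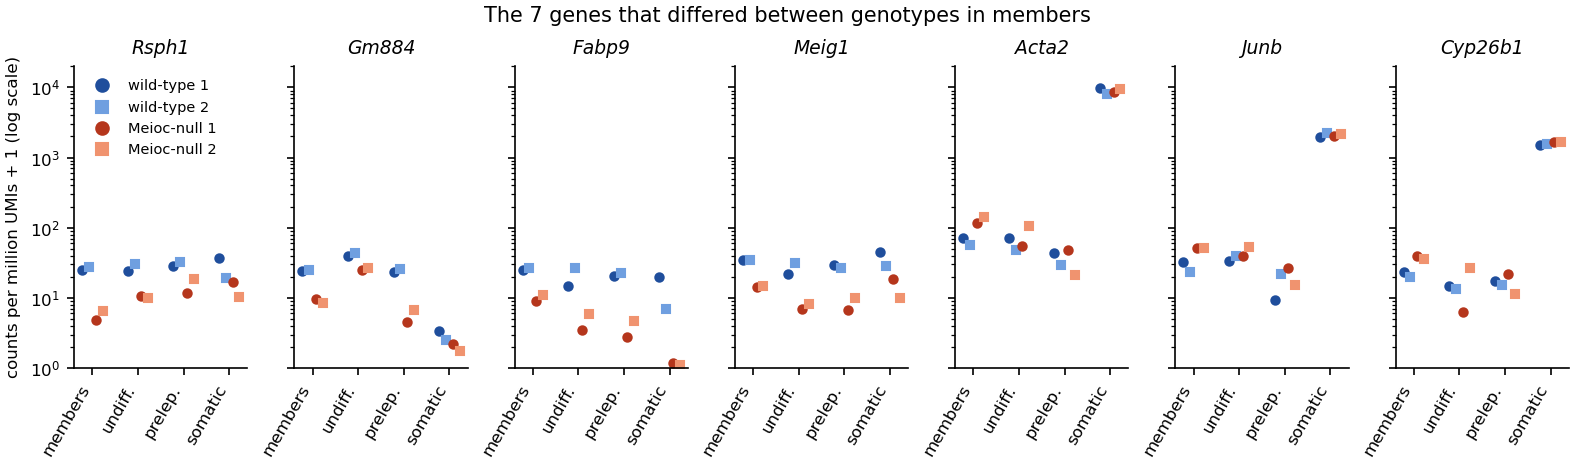
CPM plus 1, on a log scale, for the 7 genes called between genotypes in members, shown in members, undifferentiated, preleptotene and somatic cells. The 4 genes on the left are higher in wild-type members (blue) and the 3 on the right in Meioc-null members (red). Acta2, Junb and Cyp26b1 lie at 1516 CPM or more in somatic cells of every library, but somatic cells were chosen in part on Acta2.

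Because only 0.0798% of tested genes were called between genotypes without the block, lists of 4 to 48 genes with 0 calls do not stand apart from other genes. Of 6 retinoic acid receptors 4 were tested, and 0 were called (median log2 fold change 0.02, against 0.00 over all genes). Rara was at 27.9 and 22.4 against 28.3 and 24.7 CPM, and its fold change was -0.06 ± 0.15. Of 9 germline transcription factors of differentiation all were tested and 0 were called (median 0.02). Sohlh1 was at 224 and 214 against 188 and 193 CPM, a log2 fold change of 0.23 ± 0.12 with an adjusted p of 0.9995. Of 14 genes of MEIOC partners, Polycomb subunits and other repressors 0 were called (median -0.04). E2f6, a repressor subunit of a Polycomb complex, was at 51.3 and 42.7 against 54.5 and 43.6 CPM, and Mga, its partner, at 179 and 179.7 against 211 and 165 CPM, with overlapping ranges for both. Cbx1, a heterochromatin protein that the study counts among MEIOC targets and the list left out, was at 210.4 and 228 against 246 and 247 CPM and was not called (-0.14 ± 0.13). Of 30 meiotic genes 22 were tested and 0 were called (median 0.03), and of 42 S phase and 48 G2/M genes tested 0 were called (medians -0.04 and -0.04).

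With the littermate block, which called 2.37% of all genes, small differences were called in several of these lists. These p-values too borrow their spread from other genes. The counts were 1 higher and 1 lower of 9 germline factors, 1 higher and 1 lower of 14 MEIOC partners, Polycomb subunits and other repressors, 1 higher of 22 meiotic genes, 1 higher of 11 piRNA pathway genes, 1 higher of 4 progenitor genes and 2 higher and 1 lower of 15 cyclin and CDK inhibitor genes. Dppa3 was higher in wild-type members (log2 fold change 0.58 ± 0.12, adjusted p = 0.0002623), in both batches, as were Figla, an oocyte and germ cell factor (0.40 ± 0.11), Ccnd2, cyclin D2 (0.34 ± 0.09), and Cdkn1c, a CDK inhibitor (0.45 ± 0.11). Dmrtb1, which controls the switch from mitosis to meiosis, was lower (-0.65 ± 0.11, adjusted p = 4.038e-06), as was Ccne2, cyclin E2 (-0.42 ± 0.10). Pcgf6, a Polycomb subunit, was higher in wild-type members (0.40 ± 0.11), at 31.7 and 31.9 against 24.2 and 24.7 CPM, and Pbrm1, a chromatin remodelling subunit, was lower (-0.32 ± 0.09), at 163 and 168 against 215 and 205 CPM. Psma8 (0.41 ± 0.11), the proteasome subunit of spermatocytes, Gtsf1 (0.40 ± 0.10) and Sox3 (0.35 ± 0.10) were higher. Dmrtb1 was at 29.4 and 18.3 CPM in wild-type members against 44.3 and 30.6 CPM. It also differed between the batches, and the genotypes differed the same way within each. Without the block none of these 11 genes was called (adjusted p = 0.6927 for Ccne2 and 0.8721 or more for the others). Of the 48 G2/M genes 0 were called with the block either, and of the 42 S phase genes 1 was.

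Compared with undifferentiated spermatogonia, members held less RNA of several stem cell genes and more of several factors of differentiation. Genes were tested per library with edgeR, a library term in the fit, and called at an adjusted p under 0.05 and a log2 fold change beyond 1. Of 9102 genes tested, 1002 (11.0%) were called, 343 (3.77%) higher and 659 (7.24%) lower in members. Cells in both classes were chosen on the gate genes, which were left out of the test. A gene seen in 25% of the cells of 1 class alone can have entered through the class where it is high. It can also have entered through the class with more UMIs per cell. The filter favoured the direction of that class. Lists are therefore counted here and in the following class comparisons over genes seen in 25% of cells in both classes. Of 7703 such genes 106 (1.38%) were higher and 298 (3.87%) lower in members. Of 19 stem and undifferentiated genes 6 were seen in both classes, of which 3 (Zbtb16, Itga6 and Mcam) were lower and 0 higher. Another 7 passed through undifferentiated cells alone, among them Etv5, Id4 and Lhx1. Etv5, an ETS factor induced by GDNF, fell from 63.8, 64.0, 67.7 and 56.3 CPM in undifferentiated cells to 2.02, 1.28, 2.53 and 1.71 CPM in members (-5.17 ± 0.11, adjusted p = 1.031e-16). Id4, an inhibitor of helix-loop-helix factors, fell by 4.13 ± 0.11 on the log2 scale, and Lhx1 by 5.49 ± 0.13. Zbtb16 (PLZF), a marker of the undifferentiated pool, was still at 48.5 to 70.9 CPM in members against 163 to 248 CPM (-1.81 ± 0.06). Sall4 was at 111 to 127 CPM in members and 120.2 to 157 CPM in undifferentiated cells and was not called (-0.24 ± 0.06).

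The largest falls also included genes outside the stem list. Nefm, a neurofilament subunit, fell from 138 to 169.6 CPM to 0.745 to 2.29 CPM (log2 fold change -6.98 ± 0.12) and passed through undifferentiated cells alone, and Cbln2, Tcl1, Foxc2, Kcnc2, Caly and Gm36028 followed, at -6.39 to -4.97, all through undifferentiated cells alone. Of 12 KIT signalling genes 7 were seen in both classes, of which Akt1 was higher and Pik3ca lower. The ERK feedback genes Spry4 (0.0641 to 0.745 CPM in members, 14.0 to 15.5 CPM in undifferentiated cells, -5.19 ± 0.25), Dusp6 (1.22 to 2.84 against 44.1 to 53.5 CPM, -4.78 ± 0.14) and the ETS factor Etv4 (2.13 to 3.08 against 25.6 to 34.2 CPM, -3.64 ± 0.14) passed the filter through undifferentiated cells alone, Spry4 with 1 to 10 UMIs in each library of members. Of 7 progenitor genes 4 were seen in both classes and Egr4 was lower (-2.66 ± 0.06), while Nanos3 (-2.90 ± 0.11) passed through undifferentiated cells alone. Of 12 dissociation stress genes 6 were seen in both classes and 3 were lower, with a summed level of 675 to 831 CPM in members against 962 to 1272 CPM. The part of dissociation in the other differences was not tested.

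Crabp1 and Fabp5 were higher in members than in undifferentiated cells. Crabp1, the cellular retinoic acid binding protein, was at 485, 499, 471 and 491 CPM in members against 109 to 113 CPM (log2 fold change 2.02 ± 0.04, adjusted p = 1.031e-16). Fabp5, which carries fatty acids and retinoic acid and passed the filter through members alone, was at 29.6 to 34.9 against 10.54 to 15.7 CPM (1.20 ± 0.09). The receptors themselves were not called: Rara was at 22.4 to 28.3 against 24.3 to 26.3 CPM, Rarg at 16.8 to 21.1 against 13.0 to 18.3 CPM, and Rxra at 17.1 to 21.0 against 22.1 to 24.7 CPM. In somatic cells Crabp1 was at 3.45 to 9.94 CPM. Of 2 tested genes of retinoic acid synthesis, Aldh1a2 was at 22.8 to 27.8 against 15.9 to 16.5 CPM and was not called (0.54 ± 0.08).

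Of 9 germline transcription factors of differentiation 5 were seen in both classes, of which 2 (Sohlh2 and Rhox13) were higher and 0 lower. Lhx8, Dmrtb1, Esx1 and Tbx1 passed the filter through members alone, which favoured that direction. Tbx1, a T-box factor, was at 83.0, 73.8, 81.0 and 79.0 CPM in members and 2.92 to 4.61 CPM in undifferentiated cells (4.32 ± 0.10, adjusted p = 3.896e-16), the largest rise among genes that moved alike in all 4 libraries. Lhx8 rose by 3.26 ± 0.12, Dmrtb1 by 2.18 ± 0.30 and Sohlh2 by 1.16 ± 0.06, while Sohlh1, at 188 to 224 against 142 to 169 CPM, was not called (0.26 ± 0.06). The other genes of largest rise were Scube2, Gal, Mir9-3hg, Dlx1, Tbkbp1, Ccno and Spag4, by 2.86 to 3.29, all of which passed through members alone. Of 4 genes of DNA methylation and its removal seen in both classes, Tet3, a methylcytosine oxidase, rose by 1.25 ± 0.07, and Dppa3 stood at 1.76 ± 0.13 having passed through members alone. Of 18 meiotic genes seen in both classes Ly6k was higher (1.17 ± 0.19). Rec8 (1.39 ± 0.12), Prdm9, the hotspot methyltransferase (1.64 ± 0.15), and Mei1 (1.296 ± 0.13) passed through members alone, at levels below those of preleptotene cells. Prdm9 was at 9.62 to 15.3 CPM in members and 210.2 to 229.6 CPM in preleptotene cells.

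Stra8-low cells passed the same Kit and Dnmt3b gate and were set apart from members by the Stra8 limit. Their median depth was 21242 to 24628 UMIs per cell, against 28702 to 36050.5 in members. In this comparison Stra8 cannot be told apart from stage or depth. Of 8723 genes 420 (4.81%) were called, 255 (2.92%) higher and 165 (1.89%) lower in members. Of 7601 genes seen in 25% of cells in both classes 78 (1.03%) were higher and 108 (1.42%) lower. Lhx8 was higher by 2.19 ± 0.07 and Dppa3 by 2.23 ± 0.14 on the log2 scale, and both, like Ccnd2 and Rec8, passed the filter through members alone. Ccnd2, the D cyclin of early spermatogonia, was at 241, 215, 188 and 176 CPM in members and 20.7 to 31.0 CPM in Stra8-low cells (2.97 ± 0.20, adjusted p = 0.0004754), against 374 to 407 CPM in undifferentiated cells. Cdk6, its kinase partner, was at 67.2 to 85.2 against 25.2 to 34.0 CPM (1.38 ± 0.06) and Cdkn1c at 29.2 to 48.9 against 14.7 to 19.0 CPM (1.13 ± 0.12). Cdk6 and Cdkn1c were the 2 of 14 cyclin and CDK inhibitor genes seen in both classes that were higher, and 0 of the 14 were lower. Cdkn2c, p18, stood at -1.53 ± 0.11 and passed through Stra8-low cells alone. Sohlh2 (1.25 ± 0.05), Sall4 (1.46 ± 0.05), Rec8 (1.18 ± 0.12) and the piRNA factor Gtsf1 (1.051 ± 0.04) were also higher. Of 48 G2/M genes 0 were called, and of 40 S phase genes seen in both classes 0 were higher and 1 was lower.

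Hist1h2ae, a histone H2A gene, showed the largest rise over Stra8-low cells, at 83.6, 195, 79.2 and 139 CPM in members against 7.58, 21.3, 10.2 and 15.6 CPM (log2 fold change 3.19 ± 0.06). Its level was higher in the second library of each genotype, in both classes. Smim40, Clic6, Iqgap3, Ephb2, Rgs10, H2-Q7, Slc8b1 and Myl7 followed, at 2.33 to 3.04, and all passed the filter through members alone. E2f2, an E2F factor, showed the largest fall, at 1.35 to 5.37 CPM in members against 16.5 to 22.1 CPM (-2.51 ± 0.20), and passed the filter through Stra8-low cells alone, as Hist1h2ae did through members. Dmrtb1 (18.3 to 44.3 against 87.3 to 124 CPM, -1.79 ± 0.20) and Esx1 (23.0 to 42.7 against 106 to 143 CPM, -1.88 ± 0.08) were the 2 germline factors that were lower in members. The Dmrtb1 level in members therefore lay between that of undifferentiated and of Stra8-low cells.

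Most of the other genes of largest fall against Stra8-low cells are known from Sertoli cells, among them Aard, Cst12, Cst9, Defb19, Inha and Clu, at log2 fold changes of -2.42 to -2.18. Aard was at 58.5, 36.8, 64.2 and 83.0 CPM in members, 193 to 376 CPM in Stra8-low cells and 529 to 809.7 CPM in somatic cells. The 6 Sertoli markers, all with UMIs, summed to 75.4 to 146 CPM in members, 97.3 to 142 CPM in undifferentiated cells and 320 to 639 CPM in Stra8-low cells. Keeping only cells with under 3 UMIs of Sox9, Cldn11, Acta2 and Myh11, 443 genes were called, 328 higher and 115 lower (74.0% higher, against 60.7% without this filter), and 323 of the 420 were shared. Under that filter Basp1, another of the genes of largest fall, stood at a log2 fold change of 0.06. The part of Sertoli RNA in the remaining lower genes was not tested.

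Preleptotene cells hold Stra8 as members do, with Meioc and Meiosin added. Of 8774 genes 3227 (36.8%) were called, 1709 (19.5%) higher and 1518 (17.3%) lower in members. Of 5807 genes seen in 25% of cells in both classes 398 (6.85%) were higher and 1343 (23.1%) lower. Members held more UMIs per cell, so a gene passed the 25% limit more readily in members. Of 2812 genes that passed through members alone 1311 were higher and 20 lower. All 155 that passed through preleptotene cells alone were lower. How far depth moved the split among genes seen in both classes was not tested. Of 30 meiotic genes 21 were seen in both classes, of which 18 were lower in members and 0 higher. Gm4969, Meiob, Rad51ap2, Ctcfl and Msh5 passed the filter through preleptotene cells alone. Sycp3, of the synaptonemal complex, was at 353, 433, 341 and 370 CPM in members against 1466 to 2794 CPM (-2.46 ± 0.15), Dmc1, the meiotic recombinase, at 32.9 to 38.6 against 234.5 to 311 CPM (-2.93 ± 0.07), and Prdm9 fell by 4.17 ± 0.12. Gm4969 fell by 3.98 ± 0.16 and Rec8 by 1.34 ± 0.08. Ythdc2, the RNA helicase partner of MEIOC, was at 45.5 to 58.5 against 229 to 262 CPM (-2.36 ± 0.09), whereas Rbm46, the other partner, was at 252 to 274 against 236 to 277 CPM (0.01 ± 0.06, not called). Rbm46 in undifferentiated cells was at 101 to 115 CPM, and it was called higher in members than there (1.18 ± 0.04), while Ythdc2 was not (0.47 ± 0.07).

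Dppa3, the gene of largest rise over preleptotene cells (log2 fold change 6.67 ± 0.26, adjusted p = 6.406e-07), had 2, 2, 1 and 5 UMIs in the 4 preleptotene libraries, so its fold change rests on a low denominator. Trim71 (LIN41), an RNA binding protein of stem and progenitor cells, was at 143, 139.9, 138 and 114 CPM in members against 1.11 to 2.99 CPM (6.05 ± 0.21). Lhx8 rose by 5.82 ± 0.18, Erg, an ETS factor, by 5.87 ± 0.16 and Ccnd2 by 5.54 ± 0.19. The remaining genes of largest rise were 1700011D18Rik, Igfbpl1 (6.23), Cacng4, Asb9, Dlx1 and Myh7 (5.79), all through members alone. The genes of largest fall included Hist1h2ba and Hist1h2aa, testis variants of histones H2B and H2A, at -4.53 ± 0.24 and -4.24 ± 0.27, Mybl1, the meiotic MYB factor, at -4.41 ± 0.18, and Rad51ap2, at -4.32 ± 0.31. Prss41, H2-Ab1, Stxbp5l, BC051142, Pbx3 and Fgf11 were at -4.54 to -4.19. Of these genes of largest fall, Hist1h2aa was seen in both classes and the others passed through preleptotene cells alone. Of the 2 stem and undifferentiated genes seen in both classes Foxo1 was higher in members, and Zbtb16, Itga6, Sall4 and Lin28a passed through members alone. Dppa3, Trim71, Lhx8, Erg and Ccnd2 did so too. Of 11 cyclin and CDK inhibitor genes seen in both classes 3 were higher and 2 lower, with Ccne2, the S phase cyclin, at 40.8 to 65.5 against 347.5 to 410.2 CPM (-2.94 ± 0.11).

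**Figure D4:**
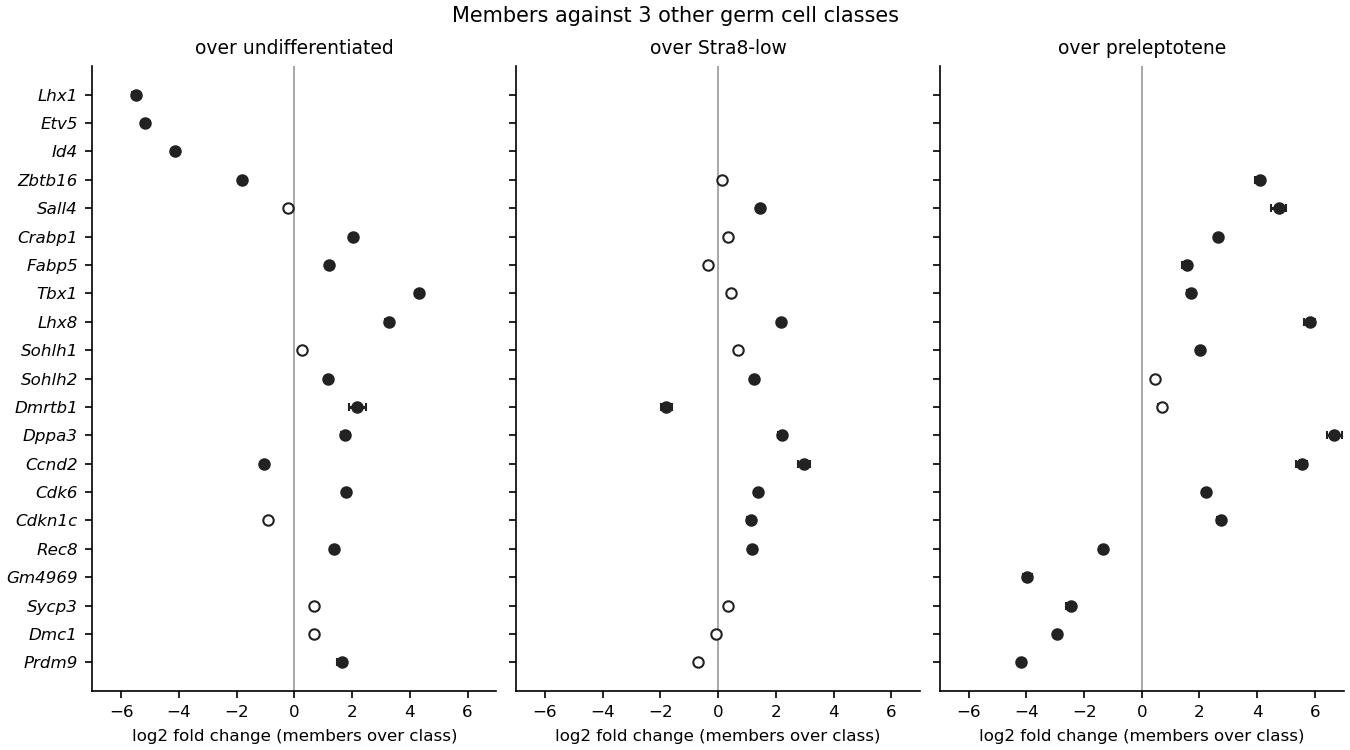
Log2 fold change of members over undifferentiated, Stra8-low and preleptotene cells for 21 named genes, with standard errors. Filled points passed both thresholds, open points did not, and a missing point was not tested in that comparison. Lhx8, Dppa3 and Cdk6 lie to the right in all 3 panels, while the stem factors Lhx1, Etv5 and Id4 lie to the left in the first. Lhx8 and Dppa3 passed the detection filter through members alone in each panel, Cdk6 did so in the preleptotene panel, and the 3 stem factors through undifferentiated cells alone.

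The difference between genotypes in members was then tested against that in preleptotene cells, as an interaction of class and genotype. Of 8935 genes 1916 (21.4%) were called, 1052 (11.8%) with a more positive wild-type over Meioc-null log2 fold change in members and 864 (9.67%) with a more negative one. The direction of the majority turned with the scaling, to 914 positive and 1022 negative with DESeq2 size factors in edgeR and 527 and 580 by DESeq2. Without a library term 494 were called, 366 positive and 128 negative, and at a mitochondrial limit of 5% 24, 21 and 3. Apart from the limits on germline genes and on Gfra1 and Ret, the preleptotene class was set by Stra8 and Meioc alone. It held 645 and 733 wild-type against 2118 and 1499 Meioc-null cells. The study separated a cluster made up almost wholly of mutant spermatocytes, which this class does not set apart, and whether the class held the same stages in both genotypes was not tested. Ccnb1, cyclin B1, was at 234, 221, 219 and 205 CPM in members, and at 17.9 and 19.4 in wild-type against 95.3 and 78.0 CPM in Meioc-null preleptotene cells (interaction 2.28 ± 0.12). Most G2/M genes shared this direction: 33 of 48 tested were called positive and 0 negative (median 0.60, against 0.00 over all genes), while their levels in members gave 0 calls between genotypes. Of 42 S phase genes 2 were called positive and 14 negative (median -0.18), and of 28 tested meiotic genes 7 positive and 5 negative. Of the 14 genes of MEIOC partners, Polycomb subunits and other repressors 7 were called positive and 1 negative, among them Rad21, a cohesin subunit, at 234, 229, 261 and 218 CPM in members and at 39.9 and 42.6 against 103 and 90.7 CPM in preleptotene cells (1.15 ± 0.11), and Mga (0.43 ± 0.11). E2f6 (0.39 ± 0.16) and Cbx1 (-0.10 ± 0.09) were not called. Figla was called negative (-1.27 ± 0.15), at 25.8 and 31.9 against 18.2 and 26.0 CPM in members and 51.3 and 55.0 against 13.8 and 20.9 CPM in preleptotene cells.

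Members were last divided by their own Stra8 level, comparing the upper and lower tertile of each library (94, 155, 182 and 209 cells in each tertile). Stra8 is a description here, at 1253 to 1405 CPM in the upper and 629 to 682 CPM in the lower tertile. Of 8832 other genes 2891 (32.7%) passed an adjusted p under 0.05, 1464 (16.6%) higher and 1427 (16.2%) lower in the upper tertile. DESeq2 called 863, the fit without a library term 886, and a mitochondrial limit of 5% left 13. Top and bottom cells come from the same libraries and were ranked on Stra8 counts of the same cells. Median depth was 32530, 34430, 30080 and 38300 UMIs per cell in the upper and 31670, 30400, 28030 and 31330 in the lower tertile, and likely doublets were 7.45% to 11.0% and 10.6% to 15.5%.

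Cyp26a1 and Foxn4 were higher in the upper tertile, but both passed the detection filter through that tertile alone, which favoured that direction. Cyp26a1, which breaks down retinoic acid and is induced by it, was at 18.9, 15.8, 7.91 and 11.8 CPM in the upper and 5.01, 5.59, 2.97 and 3.89 CPM in the lower tertile (log2 fold change 1.60 ± 0.17, adjusted p = 2.575e-08). In somatic cells it was at 0.525 to 3.66 CPM. Of 4 tested retinoic acid receptors 0 were called. Foxn4, a forkhead factor, showed the largest rise, from 2.00 to 3.45 CPM to 9.67 to 14.2 CPM (2.24 ± 0.20, adjusted p = 1.071e-09). Rec8 (0.65 ± 0.10), Lhx8 (0.69 ± 0.10), Figla (0.63 ± 0.11) and Sohlh1 (0.53 ± 0.05) were also higher, whereas Crabp1 was slightly lower, in 3 of 4 libraries (-0.12 ± 0.03) and Dppa3 was higher in 2 of 4 libraries and not called (0.26 ± 0.40). Cdkn1c, at 42.2 to 68.8 against 17.3 to 28.5 CPM (1.26 ± 0.09), and Ccnd2, at 244 to 303 against 99.6 to 159.5 CPM (1.11 ± 0.12), both rose. Of 8355 genes seen in 25% of cells in both tertiles 1317 (15.8%) were higher and 1354 (16.2%) lower in the upper one. Of 11 piRNA pathway genes seen in both, 7 were higher and 0 lower. Hist1h2ae, Slc9a3r1, Hist1h4d, Prok2, Iqgap3, Ddc and Ube2a made up the rest of the 10 largest rises, of which Slc9a3r1, Iqgap3 and Ddc passed through the upper tertile alone.

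The lower tertile held more Dmrtb1, at 31.4 to 69.0 against 6.29 to 26.4 CPM (log2 fold change -1.66 ± 0.12), and more Rhox13 (-0.32 ± 0.06) and Esx1 (-0.65 ± 0.09), the same factors that were highest in Stra8-low or preleptotene cells. Tcea3, Ppp1r14a, S100a10, S100a11, Gstm1 and Gstm2 were lower in the upper tertile by 1.22 to 1.85, Ppp1r14a having passed through the lower tertile alone. Acta2 was lower in the upper tertile, at 17.1 to 49.5 against 98.7 to 215 CPM (-2.13 ± 0.27), as were Junb (-1.94 ± 0.33, having passed through the lower tertile alone), Fos (-1.30 ± 0.08) and Cyp26b1, at 11.7 to 20.3 against 21.4 to 53.2 CPM (-1.19 ± 0.20). Sox9, the Sertoli factor, stood at 3.16 to 4.77 CPM in the upper and 7.79 to 17.2 CPM in the lower tertile. Of 5 dissociation stress genes seen in both tertiles 4 were lower in the upper one and 0 higher. The part of somatic and stress RNA in these differences was not tested. With only cells under 3 UMIs of the somatic markers, 2578 genes passed, 2283 of them shared.

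**Figure D5:**
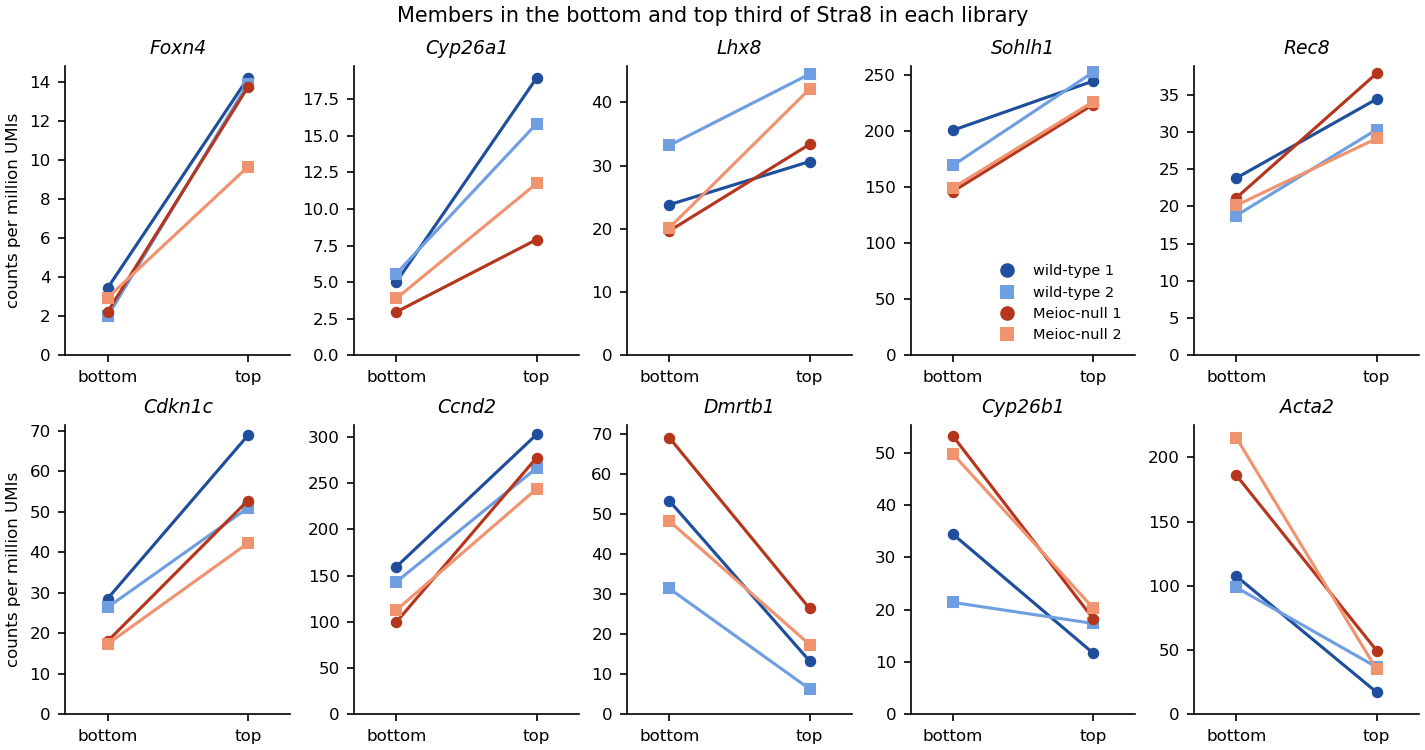
CPM in the lower and upper tertile of members by Stra8, for 10 genes. Each line is a library (blue wild-type, red Meioc-null, circles batch 1, squares batch 2), and y axes are linear from 0. Foxn4, Cyp26a1, Lhx8, Sohlh1, Rec8, Cdkn1c and Ccnd2 are higher in the upper tertile in all 4 libraries, while Dmrtb1, Cyp26b1 and Acta2 are lower in all 4.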

How the data were processed

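UMI counts per gene and cell were deposited by the authors as matrices of 32285 genes, made from 10x Genomics 3′ v3.1 libraries with Cell Ranger 4.0.0 on GRCm38 (mm10), per the labels. The labels also name Seurat. Cells were kept and classed as the report states, and their UMIs were summed per library and class. Genes detected in 25% or more of either group’s cells were tested, without the 8 gate genes, with edgeR 4.0.16 (quasi-likelihood, TMM, robust, R 4.3.3) and Benjamini-Hochberg adjustment. Class, interaction and Stra8 tertile fits held a library or batch term. The genotype fit did not, and its blocked count stands beside it: each batch, numbered as the replicates, held a littermate pair per the labels, and paired libraries deviated together (correlation 0.5125). DESeq2 1.42.0, RLE size factors, Scrublet (scanpy 1.11.5; 0.8% doublets per 1000 barcodes) and the other alternatives are given in the closing section. The unblocked genotype fit, a class fit and the interaction fit were run on simulated counts with a fixed spread. Those counts held no batch or littermate effect, and the blocked genotype fit was not simulated. They therefore do not bear on the choice of block. The named genes were 23 gene lists, the markers, and the 10 largest called changes in each direction that moved alike in every batch or library (5 for the interaction). The members and lists were chosen with earlier results of these data known. Counting lists over genes seen in both groups was chosen after the data were seen. Each library is 1 mouse, so p-values rest on 2 mice per genotype. 1 gene of the lists is not reported here.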

Additional observations from a re-analysis of the deposited data

Results flagged for a closer look

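The difference between wild-type and Meioc-null libraries was not the same in members as in preleptotene cells for 1916 of 8935 genes, by the interaction test in edgeR. The interaction is the log2 fold change of wild-type over Meioc-null in members minus that in preleptotene cells.

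The 5 most positive interactions were Depdc1a (3.81 ± 0.38, SE, adjusted p = 0.0001735), Fam183b (3.73 ± 0.66, adjusted p = 0.002777), Ttn (3.62 ± 0.54, adjusted p = 0.002473), Gm32885 (3.13 ± 0.31, adjusted p = 7.704e-05) and Olfr889 (2.98 ± 0.45, adjusted p = 0.0154). Depdc1a, a mitotic gene, was at 17.1, 13.7, 13.1 and 12.4 CPM in members and at 0.973 and 2.12 in wild-type against 15.6 and 22.5 CPM in Meioc-null preleptotene cells. Fam183b had 1 UMI in each wild-type preleptotene library, so its value rests on a low count.

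The 5 most negative were Piwil1 (-3.52 ± 0.36, adjusted p = 9.079e-05), Ina (-1.77 ± 0.25, adjusted p = 0.000805), Klc3 (-1.66 ± 0.19, adjusted p = 0.000196), Gm43409 (-1.63 ± 0.12, adjusted p = 1.206e-05) and Nudt17 (-1.61 ± 0.27, adjusted p = 0.001914). Piwil1, the pachytene PIWI protein, was at 30.3 and 13.0 against 14.3 and 10.2 CPM in members and at 23.2 and 5.58 against 0.946 and 0.369 CPM in preleptotene cells, with 24.5 and 2.10 against 0.523 and 0.420 CPM in somatic cells.

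Among the MEIOC partners, Polycomb subunits and other repressors, the interaction was positive for Mga (0.43), Pcgf6 (0.62), Sp3 (0.80), Suz12 (0.37), Rad21 (1.15), Hnrnpab (0.68) and Pbrm1 (0.30), and negative for Ring1 (-0.61).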

How the results depend on the processing

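The mean share of members was higher in Meioc-null mice under all alternatives run, by 1.87 percentage points of germ cells at a Stra8 minimum of 10 to 3.83 with doublets removed, and by 2.97 to 4.85 when 1 library was left out, but at a mitochondrial limit of 5% (2.08 points) the ranges overlapped. Counts with 1 library left out were 21 to 31 between genotypes, 970 to 1041 against undifferentiated, 392 to 469 against Stra8-low and 3157 to 3383 against preleptotene cells, 1307 to 2242 for the interaction and 1966 to 2549 between Stra8 tertiles. The genotype and interaction counts among these come from fits with 1 mouse in 1 genotype. They do not show how stable the main counts are. Without a filter on low counts the genotype count was 192 and the counts against the 3 classes were 3472, 2518 and 8164. The genotype count was 12 by DESeq2, 1 with doublets removed, 1 at a mitochondrial limit of 5%, 4 at a Stra8 minimum of 10 and 208 with the replicate block. Among alternatives added after the data were seen, it was 4 with somatic markers under 3 UMIs, and with the block 226 with doublets removed, 214 with somatic markers under 3 UMIs and 184 with Meioc under 1. DESeq2, the 5% limit and no replicate block gave 1107, 24 and 494 for the interaction and 863, 13 and 886 between Stra8 tertiles. Acta2 turned to 0.13 between genotypes at a Stra8 minimum of 10, Cyp26b1 to 0.07 and, with the block, to 0.062 with somatic markers under 3 UMIs, and Basp1 to 0.061 against Stra8-low cells. The causes were not tested. Of 1160 values of named genes under these alternatives, 4 changed sign, 85 kept their direction and lost the call and 1071 kept both. With 2 mice per genotype, a difference that was not called is not shown to be absent, since at the same depth the block called 208 genes.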
